A study of Mus musculus with 21 samples.

Results

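The 209 genomic sites described here carried a glucocorticoid receptor (GR) peak in every library from dexamethasone-injected mice and in no library from saline-injected mice. They were chosen by that detection pattern, after the peaks of all 18 GR peak lists had been merged wherever they overlapped by at least 1 bp. Of 7398 merged sites, 935 had a peak in all 9 dexamethasone (DEX, a synthetic glucocorticoid) lists, and 209 of these 935 had none in the 9 phosphate-buffered saline (PBS) lists. The GR-bound DNA was sequenced after immunoprecipitation (ChIP-seq) from whole liver of C57BL/6J mice, with no genetic change named in the labels. Mice breathed 21% oxygen (normoxia) or spent 6 h or 24 h at 7% oxygen (hypoxia), were then injected with 10 mg/kg DEX or with PBS, and were sampled 2 h later. This gave 6 groups of 3 libraries, which the design text names as biological replicates: normoxia PBS, normoxia DEX, 6 h hypoxia PBS, 6 h hypoxia DEX, 24 h hypoxia PBS and 24 h hypoxia DEX. Mice in hypoxia were returned to it after the injection. The labels name no removal of the adrenal glands, so PBS is a vehicle control and not a state without glucocorticoid. An age, a sex and a pooling of animals are not given in the sources used here.

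GR is a nuclear receptor that rests in the cytosol until it binds a glucocorticoid, then enters the nucleus and binds DNA. Its best known binding sequence is an inverted repeat of the hexamer AGAACA with a spacer of 3 bases, each receptor of a pair contacting 1 hexamer. In liver it is known for driving genes of glucose production, amino acid breakdown and lipid handling, and for binding mostly at enhancers far from gene starts, beside factors such as C/EBP, FOXA and HNF4. In whole liver, weaker binding in each cell and binding in fewer cells cannot be told apart.

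Sequence could be read for the sites that overlap a promoter window, the stretch from 250 bases before to 50 bases after a RefSeq gene start on GRCm38.p6, the build also known as mm10. Of the 209 sites, 7 overlapped such a window. The 5 printed here are the windows in which letters of a GR hexamer lay closest to the peak centre, and the windows of the liver genes Pemt and Hpn, whose starts lay inside a site. Each line gives the 250 bases before the start, 5′ to 3′ on the gene's strand, from RefSeq. Capitals mark the hexamer AGAACA on either strand (TGTTCT on the other), the 8 letters TTGCGCAA of a C/EBP site, or a 15-base stretch that matches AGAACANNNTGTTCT at all but 3 of its 12 fixed letters.
Gm36231: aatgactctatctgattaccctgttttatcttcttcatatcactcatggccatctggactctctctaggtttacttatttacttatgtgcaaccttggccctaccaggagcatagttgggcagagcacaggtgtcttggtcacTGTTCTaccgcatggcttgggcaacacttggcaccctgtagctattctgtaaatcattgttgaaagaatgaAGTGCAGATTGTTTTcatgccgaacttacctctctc
Gm35268: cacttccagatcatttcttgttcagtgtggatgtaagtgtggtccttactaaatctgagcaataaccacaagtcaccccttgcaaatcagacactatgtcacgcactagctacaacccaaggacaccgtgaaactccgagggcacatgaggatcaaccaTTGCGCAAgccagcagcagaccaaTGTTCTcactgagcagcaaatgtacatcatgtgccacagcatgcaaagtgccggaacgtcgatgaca
Ip6k2: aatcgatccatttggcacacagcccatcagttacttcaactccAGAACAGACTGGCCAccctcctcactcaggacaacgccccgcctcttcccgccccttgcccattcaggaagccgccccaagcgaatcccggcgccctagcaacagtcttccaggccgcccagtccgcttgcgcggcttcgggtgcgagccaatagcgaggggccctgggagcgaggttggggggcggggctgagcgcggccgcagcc
Pemt: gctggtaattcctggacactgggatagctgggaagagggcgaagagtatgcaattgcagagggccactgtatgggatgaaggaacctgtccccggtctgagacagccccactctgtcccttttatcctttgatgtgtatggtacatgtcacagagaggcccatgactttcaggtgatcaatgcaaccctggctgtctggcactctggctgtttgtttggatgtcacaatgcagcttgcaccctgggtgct
Hpn: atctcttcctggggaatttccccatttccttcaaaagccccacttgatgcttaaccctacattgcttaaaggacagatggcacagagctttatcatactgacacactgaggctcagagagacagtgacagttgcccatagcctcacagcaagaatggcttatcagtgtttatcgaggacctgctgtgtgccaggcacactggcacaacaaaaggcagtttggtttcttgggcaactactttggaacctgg

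The Gm36231 stretch (chr2:68845463-68845712, minus strand) held TGTTCT at bases -107 to -102 from the start, 5.5 bp from the peak centre. It also held the stretch AGTGCAGATTGTTTT at bases -36 to -22, which departs from the repeat by A3T, A4G and C14T, counted from 1 at the first base of the repeat. In the Gm35268 stretch (chr19:27312625-27312874, plus strand), TGTTCT lay at bases -67 to -62, 8.5 bp from the peak centre, and TTGCGCAA at bases -91 to -84, 14.5 bp from it. Ip6k2, which codes for an inositol hexakisphosphate kinase (chr9:108783562-108783811, plus strand), held AGAACAGACTGGCCA at bases -207 to -193, with the first hexamer whole and the second departing by T12G, T13C and T15A. This stretch lay 55 bp from the peak centre. Pemt, the enzyme that methylates phosphatidylethanolamine to phosphatidylcholine (chr11:60037006-60037255, minus strand), had no capital letter before its start, and its hexamer AGAACA lay at bases 31 to 36 after it, 115.5 bp from the peak centre but within the site. Hpn, the membrane serine protease hepsin (chr7:31110998-31111247, minus strand), had its peak centre 2 bp from the start and none of these letters before it.

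Counted over whole windows and both strands, the hexamer AGAACA occurred in 4 of the 7 windows under the 209 sites (57.1%), in 13 of 48 windows under the other 726 sites with a peak in all 9 DEX lists (27.1%), and in 19% of all 32851 windows. The repeat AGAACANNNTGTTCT with at most 3 mismatches, which can hold a hexamer counted above, occurred in 3 of 7 (42.9%), 19 of 48 (39.6%) and 14.5%. With at most 2 mismatches it occurred in 0 of 7, 5 of 48 (10.4%) and 1.84%. TTGCGCAA occurred in 1 of 7, 1 of 48 (2.08%) and 0.183%. The FOXA letters TGTTTAC, in the window of 9230116L04Rik, occurred in 1 of 7, 4 of 48 (8.33%) and 3.65%, and the HNF4 letters CAAAGTCC in 0 of 7, 1 of 48 (2.08%) and 1.42%. With 7 windows these shares are only a description, and the rest of the 209 sites had no sequence to read.

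The 209 sites formed the second largest class when the 935 sites were sorted by how many PBS lists also held them. There were 230 sites with 1 PBS list, 150 with 2, and 62 with all 9. Tags in the DEX libraries were mostly higher the more PBS lists held a site. The median site had 98.6 normalized tags (geometric mean over the 9 DEX libraries, per 10000000 tags of a library) with no PBS list, 121.9 with 1 and 411 with all 9. The quartiles of the 209 sites were 87.0 and 121.7 tags, and those of the 726 others were 112.2 and 235.0. Tags and detection come from the same peaks, so this is a description of what the rule selected.

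**Figure D1:**
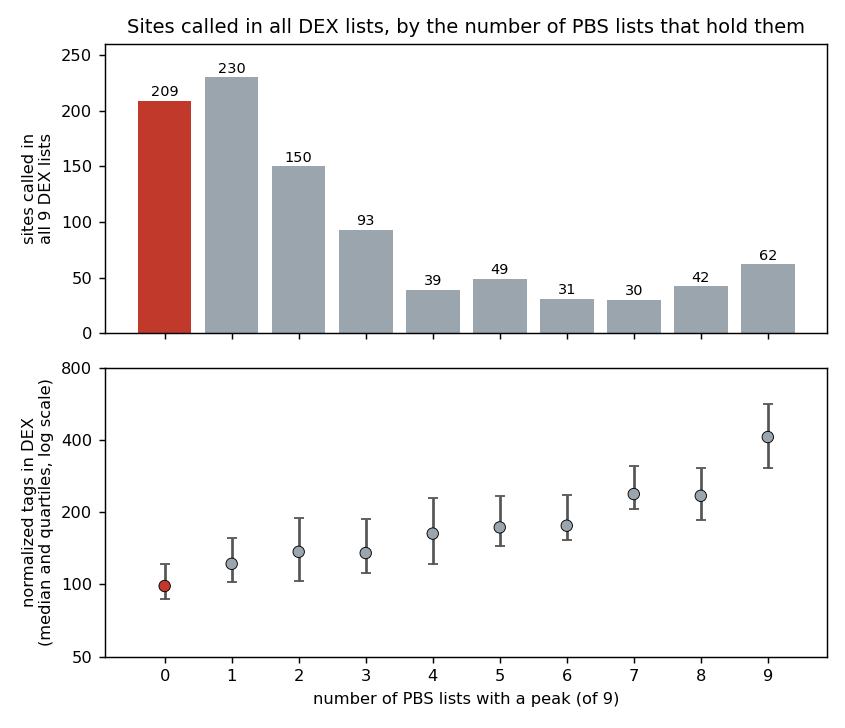
Upper panel, the number of sites with a peak in all 9 DEX lists for each number of PBS lists that also hold them, and lower panel, their normalized tags in DEX (point, median of the sites, and bars, quartiles, on a log axis). The 209 sites with no PBS list, in red, have the lowest median, 98.6 normalized tags, and the 62 sites with all 9 PBS lists the highest, 411.

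The edge of the class depended on the PBS libraries. Of the 230 sites that missed it by 1 PBS peak, 178 had that peak in 6 h hypoxia PBS replicate 2, 31 in normoxia PBS replicate 1, 20 in 6 h hypoxia PBS replicate 3 and 1 in normoxia PBS replicate 3. Replicate 2 of 6 h hypoxia PBS held 1.23% of its tags in 751 peaks, against 0.15% to 0.68% in the other 8 PBS libraries and 1.38% to 3.68% in the DEX libraries. Without that library the rule keeps 387 sites, and without normoxia PBS replicate 1, the deepest library at 43645787 tags, it keeps 240. A further 146 sites had no PBS peak and missed 1 DEX list, 60 of them that of 24 h hypoxia DEX replicate 1 and 49 that of 6 h hypoxia DEX replicate 3.

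Just inside the rule were sites at Tmcc3, Vps13d, Adamtsl4, Dnajc7 and Gpam, with 69.2, 73.9, 74.7, 76.7 and 77.0 normalized tags and a lowest peak score of 50 in a DEX list, the lowest score that any list holds. In all, 106 of the 209 sites scored under 60 in at least 1 DEX list, and 12 scored exactly 50. The 230 sites with 1 PBS peak had a median of 121.9 normalized tags in DEX, and 11.2 to 614 tags, median 77.7, in the PBS peak itself. The 2 of them with the most tags in DEX lay near Gadd45g, a DNA damage response gene, with 726.8 normalized tags in DEX and 614 in 6 h hypoxia PBS replicate 2, and in Bcl2l1, which codes for the survival protein Bcl-xL, with 641.8 in DEX and 171.2 in that library. On the other side of the rule, a site in Itsn1 with 158.4 normalized tags and a site in Agtpbp1 with 137.7 missed only 1 DEX list each.

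No PBS value exists for the 209 sites, because a peak list gives a value only where a peak was called. The lowest normalized tag count that a PBS list holds ran from 9.85 in normoxia PBS replicate 1 to 58.8 in normoxia PBS replicate 2. All 209 sites had a geometric mean above 58.8 in DEX, and 123 were above it in each of the 9 DEX libraries. The rule itself required these DEX values to belong to called peaks. As many tags in a PBS library need not have given a peak, since the caller also required an excess over the input and the local region. Tags of the input at the sites, on the scale of each library, reached at most 7.6.

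Within DEX, the sites ranged from 61.9 to 421.9 normalized tags, with 111 under 100, 89 from 100 to 200 and 9 above 200. Single values ran from 42.6 to 824.7. The median over the 209 sites was 114.6, 115.5 and 96.8 in the normoxia libraries, 99.6, 150.7 and 83.7 after 6 h of hypoxia, and 64.9, 102.8 and 101.2 after 24 h. The highest of these medians came from the shallowest library, 6 h hypoxia DEX replicate 2 (5772670 tags), and the lowest from 24 h hypoxia DEX replicate 1, which held the smallest share of tags in peaks among the DEX libraries (1.38%). The 726 others moved with them, so the ratio of the 2 medians stayed between 0.618 and 0.688 in all 9 libraries. The 209 sites held 7.66% to 10.9% of all tags in peaks.

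**Figure D2:**
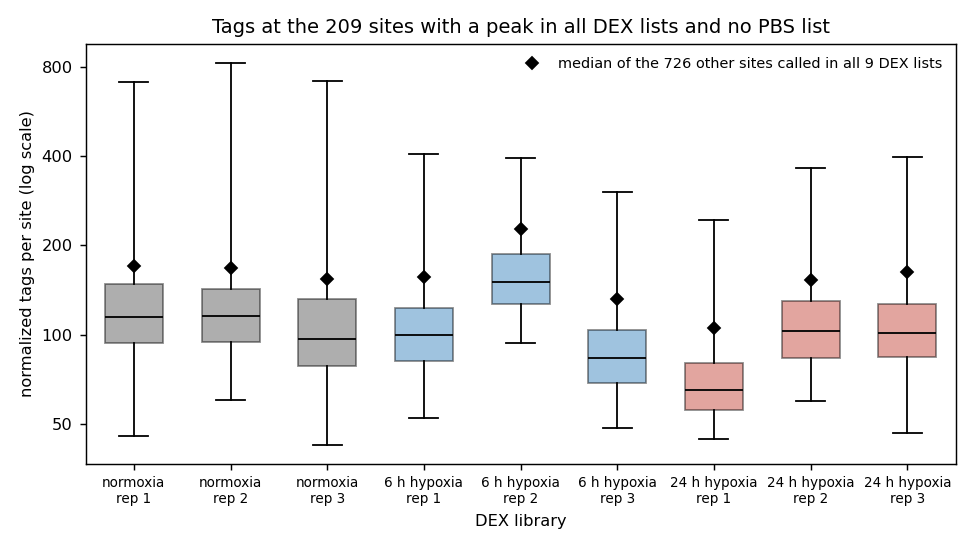
Normalized tags (log axis) of the 209 sites in each DEX library, with the box at the quartiles, the line at the median and whiskers to the lowest and highest site, and a diamond at the median of the 726 other sites called in all 9 DEX lists. The sites' median runs from 64.9 in 24 h hypoxia replicate 1 to 150.7 in 6 h hypoxia replicate 2, and every diamond lies above the box's median.

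The authors' focus ratio, a fraction that their peak caller gave for each peak, had close medians, 0.9 at the 209 sites and 0.904 at the 726. Enrichment over the surrounding 10000 bp, a fold that the authors' peak caller computed, had a library median of 28.3 to 42.4 at the 209 sites and 37.8 to 54.3 at the others. The merged sites were 196 to 316 bp wide. Spread between libraries was close as well. The SD over the 9 DEX libraries of log2 tags, each library centred on its median, had a median of 0.25 at the 209 sites and 0.23 at the others.

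Most of the sites lay within genes and away from gene starts. Inside the span of a protein-coding gene were 129 of 209 (61.7%), against 367 of the 726 others (50.6%). Outside genes, the median distance to the nearest coding gene was 10585 bp, against 13894 bp. More than 100 kb from any coding gene lay 11 sites (5.26%), against 50 (6.89%). Within 1 kb of a start of a coding gene lay 6 (2.87%), against 52 of 726 (7.16%). Among these others, the share near a start was 6.12% to 10.3% in the classes with 1 to 6 PBS lists. With 7, 8 and 9 PBS lists, 1 of 30, 0 of 42 and 3 of 62 sites lay near a start. The 6 sites near starts were those at Hpn, Pemt and Ip6k2, at Trappc10, a subunit of a vesicle tethering complex, at Ppdpf, and in Ntn3, beside the start of Tbc1d24. Their signal was moderate, from 80.7 normalized tags at Ntn3 to 115.0 at Hpn. The farthest sites lay 409394 bp from Zdhhc25, 338903 bp from Tbx3 and 338073 bp from Myc, with 121.6, 84.1 and 81.3 normalized tags.

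The sites were spread over 190 nearest genes, 15 of which had 2 or more sites and 4 of which had 3. Groups of sites less than 50 kb apart numbered 13 and held 29 sites (13.9%). Counting any site with a peak in all 9 DEX lists, 73 of 209 (34.9%) had such a neighbour within 50 kb, against 278 of 726 (38.3%). Of the 209, 7 (3.35%) lay within 50 kb of a site called in all 18 lists. Of the 190 genes, 90 (47.4%) were also the nearest gene of a site called in some PBS list, and 5 (Shb, St3gal5, Tns1, Tsku and Zbtb16) of a site called in all 18. Nearest genes are used here as names, since peak lists do not tell which gene a site acts on.

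The largest of these groups lay at Hsd17b2, which codes for the enzyme that oxidises estradiol and testosterone to less active steroids. Its 3 sites lay 9765 and 2531 bp apart and, with 1 in the neighbouring gene Sdr42e1, made a group of 4. The highest of them had 297.4, 284.4 and 194.3 normalized tags in normoxia DEX, 242.1, 343.0 and 178.9 after 6 h of hypoxia, and 208.5, 273.5 and 223.9 after 24 h. The ranges of the 3 groups overlapped, and the log2 difference between hypoxia and normoxia was 0.07 ± 0.15 (SE, n = 3 libraries a group, limma adjusted p = 0.86). The other Hsd17b2 sites averaged 180.7 ± 56.2 and 129.2 ± 49.8 normalized tags (SD, n = 9 DEX libraries). Pemt also had 3 sites, 1 of them at its start, with geometric means of 143.8, 114.5 and 116.1 normalized tags. The Pemt site at the start was among the steadier ones (SD of centred log2 tags 0.15), while the site 7877 bp from it had an SD of 0.49. The other 11 groups were pairs, at Foxn3, Spin1, Ppard, Cdo1, Nedd4l, Slc25a25, Vps13d, Sec31a, Washc2, Tsku and Zbtb16.

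The highest signal of all was 2761 bp outside Agtpbp1, which codes for a carboxypeptidase that trims glutamate from tubulin (chr13:59446666-59446880). It had 713.9, 824.7 and 719.9 normalized tags in normoxia DEX, 406.4, 393.2 and 302.6 after 6 h of hypoxia, and 141.9, 366.1 and 397.9 after 24 h. All 6 hypoxia values lay below all 3 normoxia values. Next came sites in Pag1, an adaptor that restrains Src kinases (288.0 normalized tags), Nek7, a mitotic and inflammasome kinase (246.3), Hsd17b2 (244.5), Rnf169, a ubiquitin-binding protein of DNA repair (222.7), Washc2, a subunit of the endosomal WASH complex (216.4), Ppard (213.3), Scarb1 (212.2) and Cdkal1 (206.3). The last 3 of the 12 highest were in Nav2 (198.4), Dapk1 (196.1) and Iqch (183.7). At Nek7 the normoxia libraries alone spanned 450.6, 289.2 and 192.8 normalized tags, wider than the 243.6, 281.4 and 278.4 after 24 h.

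Whether hypoxia changed GR binding at these sites in DEX-injected mice was asked with limma over the 935 sites, since the rule did not use differences between the oxygen conditions. Log2 changes are of normalized tags, with each library centred on its median over the 935 sites, so they are relative to the typical site. Every value is from a called peak, so a fall that took a site below the calling threshold in any DEX library could not be seen. Against normoxia, with both times of hypoxia together, 9 of the 209 sites were lower (4.31%) and 2 were higher (0.957%) at an adjusted p under 0.05. Over all 935 sites, 2.03% were lower and 3.1% higher. The median log2 change was -0.02 at the 209 sites and 0.05 over all 935. At an unadjusted p under 0.05, 30 of the 209 were lower and 18 higher, against 69 and 93 of 935.

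The balance of lower and higher calls depended on the choice of sites. With the sites chosen without 6 h hypoxia PBS replicate 2, 14 of 387 were lower and 16 higher. Without centring and with edgeR, lower calls outnumbered higher ones among the 209 sites too, but then also over all 935 sites. Without centring, 6 of the 209 were lower and 0 higher (over all 935 sites, 9 and 2), and with edgeR 17 and 1 (over all 935 sites, 35 and 20). Without centring, 24 h of hypoxia had a median log2 change of -0.22 over all 935 sites, against 0.06 with centring. Leaving out normoxia DEX replicate 2 left 5 lower and 1 higher (over all 935 sites, 8 and 14). Leaving out normoxia DEX replicate 3 gave 13 and 4 (over all 935 sites, 23 and 41). Whether the lean is particular to these sites was not tested.

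**Figure D3:**
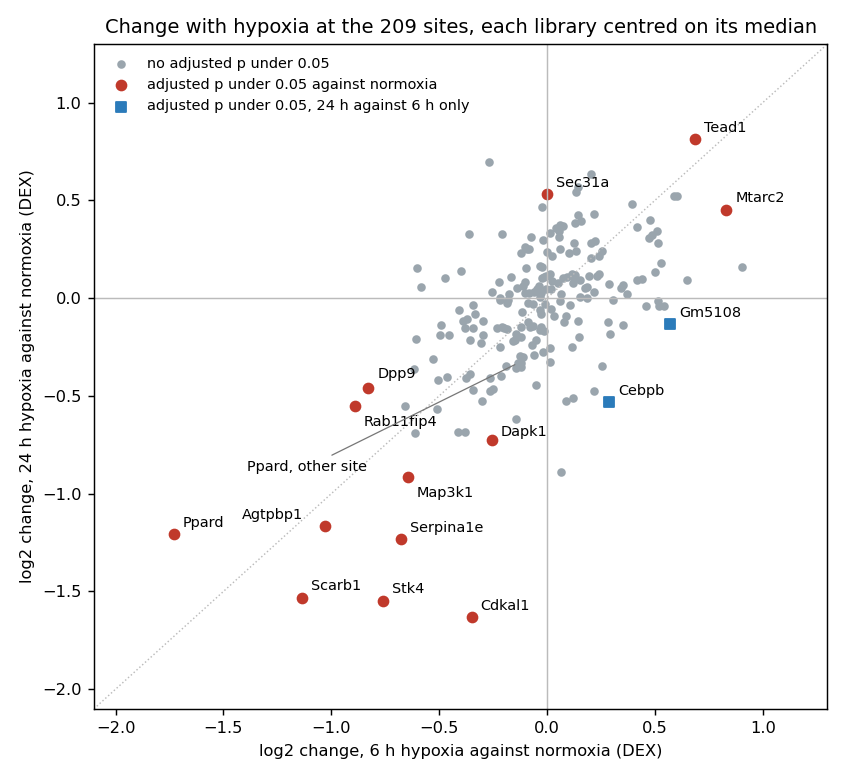
Each point is 1 of the 209 sites, placed by its log2 change in normalized tags after 6 h (horizontal) and after 24 h of hypoxia (vertical) against normoxia, all with DEX and each library centred on its median. Red points passed an adjusted p of 0.05 in a comparison with normoxia and blue squares only in 24 h against 6 h, with the dotted line at equal change. Most sites lie near 0, Ppard is the farthest left at -1.73, and Cdkal1 is the lowest at -1.63.

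The 9 lower sites were those at Ppard, Scarb1, Agtpbp1, Stk4, Map3k1, Rab11fip4, Dpp9, Cdkal1 and Serpina1e. Ppard, a nuclear receptor for fatty acids, had the largest fall at a site inside the gene (chr17:28272320-28272546). That site had 374.8, 546.0 and 446.7 normalized tags in normoxia, 143.3, 178.4 and 95.2 after 6 h of hypoxia, and 88.9, 213.6 and 215.9 after 24 h, with no overlap between hypoxia and normoxia. The log2 change was -1.47 ± 0.17 (SE, limma adjusted p = 0.000241), with -1.73 ± 0.20 at 6 h (adjusted p = 0.000365) and -1.21 ± 0.20 at 24 h (adjusted p = 0.00307). The other site in Ppard, 10916 bp away, had 138.1, 199.5 and 179.6 normalized tags in normoxia, 129.4, 200.9 and 139.9 after 6 h, and 64.1, 143.5 and 148.7 after 24 h. Its groups overlapped, and its log2 change was -0.23 ± 0.17 (limma adjusted p = 0.519). The difference between the 2 sites was not tested.

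Scarb1, the receptor through which liver cells take up cholesterol from high-density lipoprotein, had 486.3, 426.7 and 360.0 normalized tags in normoxia, 133.7, 285.8 and 178.9 after 6 h, and 69.2, 168.4 and 146.3 after 24 h (chr5:125297359-125297566, inside the gene). Every hypoxia value lay below every normoxia value, and the log2 change was -1.33 ± 0.17 (SE, limma adjusted p = 0.000503). At the Agtpbp1 site given above, it was -1.10 ± 0.19 (limma adjusted p = 0.00507). These 2 sites and that in Ppard were also among the 12 with the most tags.

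Stk4, the Hippo pathway kinase also called MST1, fell by 1.15 ± 0.20 on the log2 scale (limma adjusted p = 0.00507), from 170.7, 186.1 and 298.0 normalized tags in normoxia to 118.9, 164.6 and 97.1 after 6 h and 53.0, 71.2 and 55.4 after 24 h (chr2:164131477-164131704). Map3k1, a kinase at the head of the JNK cascade, fell by 0.78 ± 0.15 (limma adjusted p = 0.00813), from 189.7, 200.4 and 144.0 normalized tags in normoxia to 89.1, 136.9 and 114.2 after 6 h and 57.3, 87.0 and 90.2 after 24 h. At both, all 6 hypoxia values lay below the 3 normoxia values. The same held at Rab11fip4, an effector of the recycling endosome protein Rab11 (log2 change -0.72 ± 0.13, limma adjusted p = 0.00723), and at Dpp9, a cytosolic dipeptidyl peptidase (-0.64 ± 0.13, limma adjusted p = 0.00957). At the site in Cdkal1, a gene whose values follow with the comparison of 24 h and 6 h, the log2 change was -0.99 ± 0.17 (limma adjusted p = 0.00581). At a site 4906 bp from Serpina1e, the log2 change was -0.95 ± 0.22 (limma adjusted p = 0.0218). Serpina1e is 1 of several near-identical genes for alpha-1-antitrypsin, so the tags there may be split between copies.

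Without normoxia DEX replicate 2, 5 of these sites missed the threshold, with an adjusted p of 0.0535 at Rab11fip4, 0.0616 at Map3k1, 0.0786 at Dpp9, 0.115 at Serpina1e and 0.058 at Tead1, which is described next. Serpina1e also missed it without normoxia DEX replicate 1 (0.0814) and without 6 h hypoxia DEX replicate 3 (0.0506). With both times together, Ppard, Scarb1, Stk4, Agtpbp1 and Cdkal1 stayed under 0.05 whichever DEX library was left out. An alternative chosen after seeing the data fitted 6 h and 24 h as 1 group. There Cdkal1 (adjusted p = 0.14), Serpina1e (0.0553) and Mtarc2 (0.0889) missed the threshold. With the share of tags in peaks as a covariate, Agtpbp1 and Dpp9 (0.0501 each), Serpina1e (0.106) and Mtarc2 (0.361) missed it. Without centring, Rab11fip4 (limma adjusted p = 0.117), Map3k1 (0.0608), Dpp9 (0.217), Tead1 (0.699) and Mtarc2 (0.939) missed it.

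Higher in hypoxia were 2 sites of modest signal. The site 34523 bp from Tead1, the DNA-binding partner of the Hippo pathway's coactivators, had 91.0, 65.9 and 69.7 normalized tags in normoxia, 114.5, 176.7 and 83.7 after 6 h, and 81.2, 105.1 and 147.1 after 24 h. Of its 6 hypoxia values, 4 lay above all normoxia values before centring and all 6 after it. The log2 change was 0.75 ± 0.14 (SE, limma adjusted p = 0.00723). Without centring, the log2 change at Tead1 was 0.60 and the call was lost (limma adjusted p = 0.699). The site 3410 bp from Mtarc2, a mitochondrial molybdenum enzyme, rose by 0.64 ± 0.17 (limma adjusted p = 0.0488). It lost the call without any 1 of 7 of the 9 DEX libraries, with an adjusted p of at most 0.142.

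By itself, 6 h of hypoxia gave 5 lower and 2 higher of the 209 sites, where 0.856% and 1.71% of all 935 sites passed. The lower ones were Ppard, Scarb1, Agtpbp1, Dpp9 and Rab11fip4 and the higher ones Mtarc2 and Tead1. Both higher calls at 6 h were weak: Mtarc2 was kept in 5 of 16 alternatives, and Tead1 in 8 of 17, being lost without any 1 of 6 of the 9 DEX libraries (adjusted p up to 0.177). Of the lower calls at 6 h, Agtpbp1 was lost without normoxia DEX replicate 2 (adjusted p = 0.106). It was also lost without 6 h hypoxia DEX replicate 2 (0.0706) or 3 (0.0513). Dpp9 was lost without normoxia DEX replicate 2 (0.0675) or 6 h hypoxia DEX replicate 1 (0.0682). Ppard, Scarb1 and Rab11fip4 kept their 6 h calls whichever DEX library was left out. The 7 calls at 6 h became 1 lower and 0 higher without centring (over all 935 sites, 1 and 2). They became 8 lower and 4 higher without normoxia DEX replicate 1 (over all 935 sites, 13 and 13) or 3 (11 and 30). Without normoxia DEX replicate 2 they became 3 lower and 1 higher (over all 935 sites, 3 and 5). Without 6 h hypoxia DEX replicate 1 they became 4 lower and 0 higher (over all 935 sites, 4 and 5). After 24 h, 8 were lower and 2 higher, where 2.03% and 2.14% of all 935 passed. The lower ones were Cdkal1, Stk4, Scarb1, Serpina1e, Ppard, Agtpbp1, Map3k1 and Dapk1, and the higher ones were Tead1 and 1 of the 2 sites in Sec31a, a subunit of the COPII vesicle coat. Dapk1, a calmodulin-regulated death kinase, fell at 24 h by 0.73 ± 0.16 on the log2 scale (limma adjusted p = 0.0148), and Sec31a rose by 0.53 ± 0.14 (limma adjusted p = 0.0498). The Sec31a call was kept in 6 of 17 alternatives and was lost without any 1 of 8 of the 9 DEX libraries (adjusted p up to 0.178) and without centring (0.864). At 24 h, Dapk1 was lost without normoxia DEX replicate 2 (adjusted p = 0.0806) or 24 h hypoxia DEX replicate 1 (0.0835). Serpina1e was lost without normoxia DEX replicate 2 (0.0611) or 24 h hypoxia DEX replicate 3 (0.0615). Without these same libraries the higher call at Tead1 was lost too (0.0646 and 0.0595). Without centring, Tead1 (limma adjusted p = 0.597) and Dapk1 (0.0691) lost their calls at 24 h. The other lower calls at 24 h were kept whichever DEX library was left out. The 10 calls at 24 h became 18 lower and 3 higher without normoxia DEX replicate 1 (over all 935 sites, 42 and 37). Without normoxia DEX replicate 2 they became 6 lower and 0 higher (over all 935 sites, 13 and 10).

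Between 24 h and 6 h of hypoxia, 3 of the 209 sites were lower at 24 h and 0 higher, where 1.28% and 0.107% of all 935 sites passed. At an unadjusted p under 0.05, limma had 23 lower and 19 higher of the 209, against 86 and 68 of 935. With edgeR, 3 of the 209 were lower and 0 higher, against 14 and 2 of 935. The largest of these differences was at Cdkal1, a tRNA-modifying enzyme (chr13:29576241-29576452). Its site had 283.0, 367.5 and 411.0 normalized tags in normoxia, 292.8, 318.7 and 215.0 after 6 h, and 55.5, 111.9 and 127.3 after 24 h. The 6 h values overlapped those of normoxia, and the 24 h values lay below all others. The difference between 24 h and 6 h was -1.28 ± 0.20 on the log2 scale (SE, limma adjusted p = 0.00543), and the site kept its call without any 1 DEX library.

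A site 91336 bp from Cebpb, the gene of the liver transcription factor C/EBP beta, had 156.3, 138.4 and 121.5 normalized tags in normoxia, 138.1, 199.2 and 169.4 after 6 h, and 60.7, 91.5 and 86.2 after 24 h. The 24 h values lay below all others, and the difference between 24 h and 6 h was -0.82 ± 0.17 (limma adjusted p = 0.0232). The third such site lay 9750 bp from the predicted gene Gm5108 (-0.70 ± 0.16, limma adjusted p = 0.0456). Cebpb lost its call without 6 h hypoxia DEX replicate 3 (adjusted p = 0.109) or without 24 h hypoxia DEX replicate 1 (0.054), 2 (0.0943) or 3 (0.0966), and Gm5108 without 6 of the 9 libraries. The count of 3 became 7 without normoxia DEX replicate 1, 12 without normoxia DEX replicate 3, and 1 without 6 h hypoxia DEX replicate 3 or any 1 of the 24 h libraries.

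**Figure D4:**
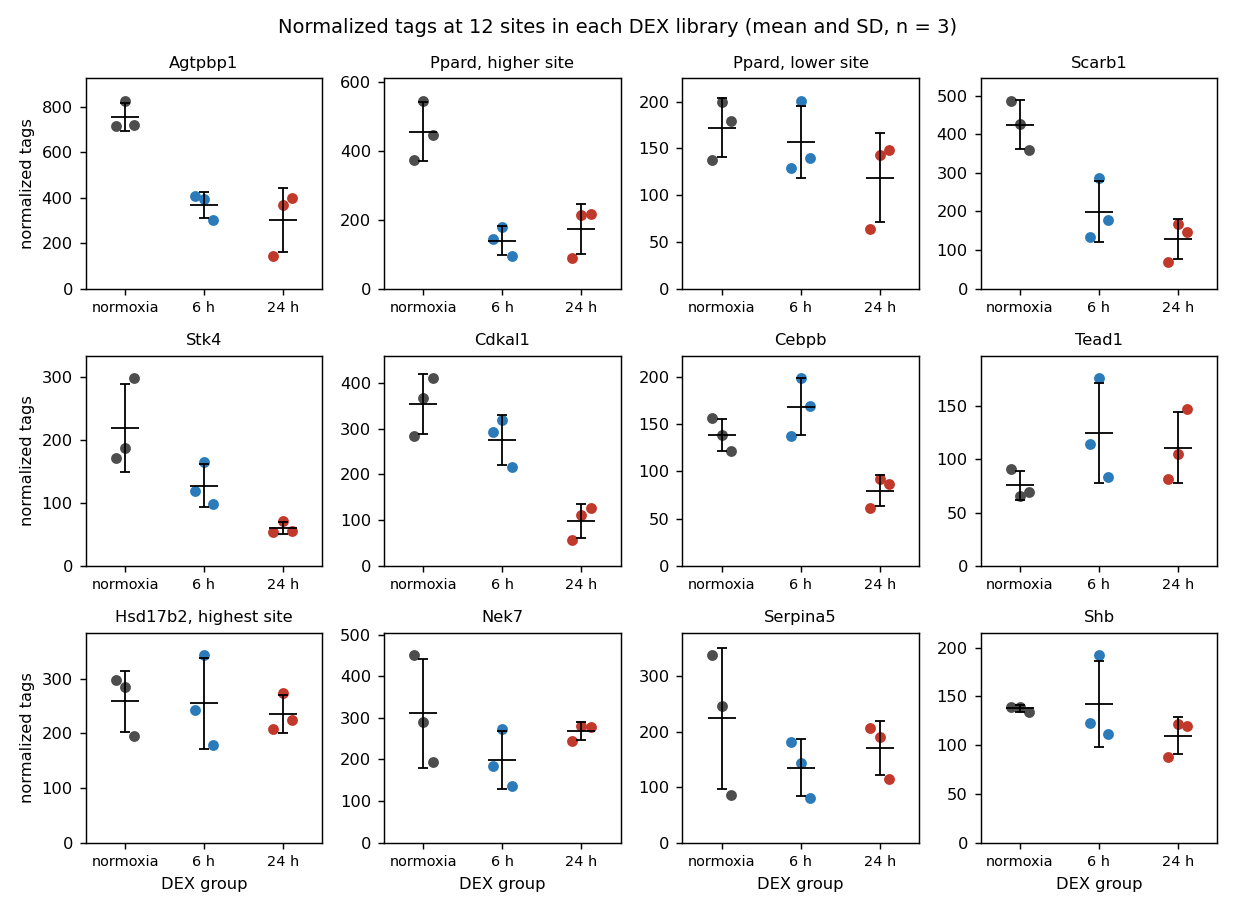
Normalized tags at 12 sites (vertical axis, starting at 0 in each panel) in the 3 libraries of each DEX group (points), with the mean and SD (bars, n = 3). Agtpbp1, Scarb1, Stk4 and the higher Ppard site have all hypoxia points below all normoxia points, Cdkal1 and Cebpb are low at 24 h only, and Hsd17b2, Shb and the lower Ppard site overlap between groups.

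The steadiest of the sites lay in Shb, an adaptor of receptor tyrosine kinases, with an SD of centred log2 tags of 0.08 over the 9 DEX libraries. Before centring it had 139.6, 139.4 and 133.9 normalized tags in normoxia, 123.2, 192.3 and 111.3 after 6 h, and 88.0, 122.0 and 119.4 after 24 h, highest and lowest in the same 2 libraries as the medians given above. Slc25a25, a mitochondrial ATP and phosphate carrier, Tmem37, Ip6k2 and Lrrc58 followed, with SDs of 0.10 to 0.12. The most variable sites were Ppard (0.81), Cdkal1 (0.79), Stk4, Scarb1 and Serpina5 (0.73 each). The Serpina5 site varied within groups instead, with 338.3, 247.2 and 86.7 normalized tags in normoxia DEX alone, and its log2 change with hypoxia was -0.26 ± 0.37 (limma adjusted p = 0.753).

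Listed glucocorticoid-induced genes were the nearest gene of 4 of the 209 sites. Over all 21900 protein-coding genes with a position, 190 (0.868%) were the nearest gene of a site. Of 30 glucocorticoid-induced genes listed, 3 were (10%), while 21 were the nearest gene of some site with a peak in all 9 DEX lists. They were Bcl6, a transcriptional repressor (91799 bp away, 165.0 normalized tags), Cebpb (121.7) and Zbtb16, a zinc finger repressor known for its strong induction by glucocorticoids, with 2 sites (125.7 and 127.6). At the first of these Zbtb16 sites all 6 hypoxia values lay below the normoxia values without passing the test (log2 change -0.49 ± 0.14, limma adjusted p = 0.0682). The lists were written with earlier results of these data known, so the 10% is no result.

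Among metabolic lists, gluconeogenesis and amino acid breakdown had 1 gene of 26, Hpd, an enzyme of tyrosine breakdown (74.7 normalized tags), and fatty acid and ketone metabolism 1 of 26, Ppard. Cholesterol, bile and drug metabolism had 3 of 32, namely Scarb1, Abcc2, which exports conjugates into bile (125.8), and Cyp2b10, an inducible drug-metabolising cytochrome (84.6). Steroid hormone metabolism had 1 of 16, Hsd17b2. None of 22 clock genes and none of the 29 matched genes of 30 listed as targets of the hypoxia-inducible factors was nearest to a site, where the 0.868% of all genes would give less than 1 gene in either list, so nothing can be read from their absence. Nearest to some site called in all 9 DEX lists were 5 and 4 of them, and 3.32% of all genes. In these lists, the Ppard and Scarb1 sites given above passed the test in hypoxia, both lower, and no site passed as higher.

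The acute phase and inflammation list had 3 genes of 31, Hp, which codes for the haemoglobin scavenger haptoglobin (122.3 normalized tags), the serum amyloid gene Saa3 (90.1) and Socs2, an inhibitor of growth hormone signalling (74.7). Liver transcription factors had 3 of 24, Cebpb, Hnf4a (89.8) and Tbx3, and insulin and growth signalling 2 of 34, Fgfr4, the receptor for an intestinal bile acid signal (89.7), and Trib1, a pseudokinase (91.2). The list of kinases and their cascades had 8 of 27 (Dapk1, Map2k3, Map3k1, Nek7, Pag1, Prkce, Stk4 and Tead1), but it was written knowing that such genes were among the sites, so its share is no result. Against normoxia, none of the 8 sites of the first 3 of these lists passed the test, and in the kinase list 2 were lower (Map3k1 and Stk4) and 1 higher (Tead1) with both times together.

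Peak lists hold no expression, so the labelled tissue could be looked at only through nearest genes. Of 16 matched hepatocyte markers 1 had a site, Alb, the albumin gene, 13084 bp away with 104.4 normalized tags. Of 16 endothelial markers 1 had a site, Gpihbp1, which anchors lipoprotein lipase on capillaries, with 91.7. None of 16 Kupffer cell and leukocyte markers and none of 16 stellate cell and cholangiocyte markers was the nearest gene of a site, nor of any site called in all 9 DEX lists. Over all genes these shares were 0.868% and 3.32%, which would give less than 1 gene in a list of 16. Nothing can therefore be read from their absence. The part of other cell types in the signal was not tested.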

How the data were processed

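GR ChIP-seq peak lists of 18 liver libraries were analysed; the 3 inputs entered only through values that the peak caller took from them. Per the submitters' processing notes, Trimmomatic, BWA 0.7.17, SAMtools 1.10, HOMER and the build mm10 were used. Per the file headers, HOMER called peaks in each library alone against an input, requiring a 4-fold excess of tags over the input and over the local 10000 bp, each with a Poisson p of 1e-04. The deposited normalized tag count is a signal that the authors' caller scaled to 10000000 tags per library. The whole tags of each peak, which edgeR used, are a deposited count as the authors' caller made it. The deposited focus ratio is a fraction, the deposited fold over local tags or input a ratio, and the deposited score the caller's own, at least 50 in every list and not scaled to depth. Depth was 5772670 to 43645787 tags, so a score of 50 stood for 11.5 to 86.6 normalized tags. Normoxia PBS replicate 1 was called with a peak size of 280 bp and a cap of 2 tags per base, against a cap of 1 in the other libraries.

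Samples were grouped by their titles. Overlapping peaks (1 bp) were merged, and a site took the highest peak of a library. The difference between DEX and PBS chose the sites and was not tested. Hypoxia was compared with normoxia among the 9 DEX libraries with limma 3.58.1 (R 4.3.3) on centred log2 tags, 3 groups in 1 fit, Benjamini-Hochberg over 935 sites, adjusted p under 0.05, and the fit was tested on simulated data. edgeR 4.0.16 was an alternative. P-values measure the spread between these libraries. Nearest genes and windows are from RefSeq (GRCm38.p6). Motif searches used 300-base windows only. The sites and gene lists were chosen with earlier results of these data known. Named were the 12 sites with most tags, all sites past a threshold, list genes, sites within 1 kb of a start or 50 kb of each other, the farthest, steadiest and most variable, and those at the edge of the rule; the windows shown were chosen after their matches were seen.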

Additional observations from a re-analysis of the deposited data

Results flagged for a closer look

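In 3 of the 209 sites the change after 24 h of hypoxia differed from that after 6 h by limma's test of the difference itself, with DEX throughout. At Cdkal1 the difference between 24 h and 6 h was -1.28 on the log2 scale (SE 0.20, adjusted p = 0.00543), from changes against normoxia of -0.35 at 6 h and -1.63 at 24 h. At the site 91336 bp from Cebpb it was -0.82 (SE 0.17, adjusted p = 0.0232), from 0.29 and -0.53. At the site near Gm5108 it was -0.70 (SE 0.16, adjusted p = 0.0456), from 0.57 and -0.13. All 3 values at 24 h lay below all 3 at 6 h at each of these sites.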

How the results depend on the processing

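The 209 sites became 76 when all lists were cut at a common minimum of 86.6 normalized tags, and 209 to 387 when 1 library was left out, 387 being without 6 h hypoxia PBS replicate 2. The sites called in hypoxia (11) became 6 without centring, 18 with edgeR (17 lower, with 35 lower and 20 higher over all 935 sites), and 6 to 17 with a DEX library left out. Those at 6 h (7) became 1 without centring, and 4 to 12 with a DEX library left out. Those at 24 h (10) became 6 to 21 with a DEX library left out. Those between 24 h and 6 h (3) became 1 to 12 with a DEX library left out. With the share of tags in peaks as a covariate they became 5, all lower (over all 935 sites, 16 lower and 1 higher). For the ends of these ranges, the counts over all 935 sites are given above. With sites chosen without 6 h hypoxia PBS replicate 2 (387 sites), an alternative chosen after seeing the data like edgeR above, the counts were 30, 16, 22 and 6. The 26 sites whose DEX values all exceeded the common minimum were also chosen afterwards. That choice used the values under test and dropped sites that fell below the minimum in hypoxia. It therefore cannot show how the falls depend on the minimum. With these 26 sites the counts were 2, 2, 3 and 0, from fewer sites. With a replicate block, which pairs libraries of the same number, they were 21, 12, 20 and 16 (17, 8, 16 and 10 of them lower), where all 935 sites gave 31, 15, 40 and 29 lower and 43, 25, 41 and 14 higher. The correlation of same-numbered libraries ran from 0.006 to 0.506 and passed 0.1 in 7 of 9 pairs. That of differently numbered libraries of different groups ran from -0.482 to 0.356. Of the 9 libraries, 4 correlated best with their own number in both other groups. Whether the numbers mark a pairing of the libraries was not tested.

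With the share of tags in peaks as a covariate, all 935 sites gave 5 higher and 10 lower in hypoxia, against 29 and 19. Without centring 16 of the 31 site calls were lost and with that covariate 12, and no call turned its direction under any alternative run. Ppard, Scarb1 and Stk4 passed in 18 of 18 alternatives with both times together, and Mtarc2 in 5 of 17. The cause of these changes was not tested. A score of 50 stood for 86.6 normalized tags in the shallowest DEX library, and without that library (6 h hypoxia replicate 2) the rule kept 224 sites.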
